A study of Mus musculus with 2 samples.

Results

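A set of 9 genes of T cell receptor signalling, Lck, Fyn, Cd247, Zap70, Lat, Lcp2, Plcg1, Prkcq and Themis, were read in single-cell RNA libraries of tumour-infiltrating immune cells. They were chosen by name, and they are 9 of the 27188 gene symbols that the feature lists of the 2 libraries hold between them. Raw counts of unique molecular identifiers (UMIs, 1 per captured RNA molecule) were summed over CD8 T cells with and without Pdcd1, CD4 T cells, Foxp3-positive T cells and natural killer (NK) cells of each library. The libraries were made from wild-type C57BL/6 mice with tumours under the skin grown from MC38 cells, a colon carcinoma line of the same strain. The control group was described only as control. In the PBM group, pulsed photobiomodulation (light treatment) was given every day from day 7, and tumours were taken on day 14. CD45-positive cells were sorted and pooled within a group, so each group is 1 library. The age and number of the mice were not given in the sources used here. With 1 library a group no test was made: every interval is a 95% interval for counting error only, the values compare these libraries and not the conditions, and treatment, pool of mice and library cannot be told apart.

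Antigen binding by the T cell receptor is passed on by immunoreceptor motifs in the CD3 and zeta chains. The Src-family kinases Lck and Fyn phosphorylate these motifs, Zap70 docks on them and phosphorylates the scaffold Lat, and Lat with the adaptor SLP-76, the product of Lcp2, gathers phospholipase C gamma 1 and other effectors that raise calcium, protein kinase C theta and Ras signals. NK cells use some of the same proteins behind other receptors, with Syk, Fcer1g and Plcg2 taking parts that Zap70, Cd247 and Plcg1 take in T cells.

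The control library held 11238 barcodes with a median of 5621.5 UMIs, and the PBM library 13962 with a median of 5143.5. Populations were gated on UMIs of lineage genes, none of which is among the 9. A T cell needed at least 2 UMIs of Cd3d, Cd3e and Trac together and an NK cell at least 2 of Ncr1, Klrb1c, Klra4 and Klra8, in each case more than of the genes of any other lineage. Control and PBM libraries gave 602 and 49 Pdcd1-positive CD8 T cells, 648 and 3582 Pdcd1-negative CD8 T cells, 325 and 953 CD4 T cells, 419 and 243 Foxp3-positive T cells, and 1272 and 125 NK cells. All 10 T cell markers were detected in each T cell population, with a summed level of 5201 to 7794 CPM (counts scaled to a total of 1000000 UMIs in the population). In NK cells that sum was 636 CPM in the control and 1419 CPM in the PBM library, where the 10 NK markers summed to 6210 and 16351 CPM. The T cell markers include Cd3d, Cd3e and Trac, and the NK markers include Ncr1, Klrb1c, Klra4 and Klra8. These are genes of the gates, so the T cell and NK marker sums are partly set by the gating. The libraries were unlike mixtures of cells. By gating on lineage genes, myeloid cells made 37.6% of control but 0.544% of PBM cells. B cells made 1.94% of control and 44.9% of PBM cells, and T cells 24.1% and 50.7%. Stromal cells numbered 190 among control and 0 among PBM cells. How far this difference moved the ratios of PBM to control was not tested. Within the T cell populations, markers of other cell types differed as well. In the T cell populations the 10 monocyte and macrophage markers summed to 1733 to 2319 CPM in the control library, with none at 0, and to 33.4 to 72.1 CPM in the PBM library, with up to 6 at 0. The 10 B cell markers summed to 17.8 to 31.7 CPM in the control and 707 to 864 CPM in the PBM library. The barcodes are cell numbers and not sequences, and 1991 of these names occur in both libraries.

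Part of the control NK gate lay with stromal cells when all cells were clustered. Of its 1272 cells, 168 (13.2%) fell in the cluster led by Sparc, Cald1 and Ankrd1. They had a median of 21745.5 UMIs and gave 35.2% of the gate's UMIs, with 9.92 CPM of Lck and 1498 CPM of the stromal markers. The 1063 control NK cells in the NK cluster had 301 CPM of Lck and 38.1 CPM of the stromal markers. In the PBM library 124 of the 125 gated NK cells lay in the NK cluster. The control T cell gates also held cells in clusters of another cell type. Such cells gave 6.49% of the control UMIs in Pdcd1-positive CD8 and 19.3% in Pdcd1-negative CD8 T cells. In control CD4 and Foxp3-positive T cells they gave 16.0% and 14.7%. In PBM T cells they gave at most 0.949%. T cell levels below are those of all gated cells unless stated. The levels in NK cells and the main ratios are therefore also given for the remaining cells, after gated cells in clusters of another cell type were left out. This was decided after the data had been seen. It left 579 and 49, 600 and 3545, 312 and 953, 399 and 240, and 1071 and 124 control and PBM cells, in the order of populations above.

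Promoter sequence is shown for 5 members that the results below turn on: Zap70 and Lcp2, which stood lower in PBM than in control T cells, Lat and Themis, which were far lower in NK than in CD8 T cells, and Fyn, which was highest in NK cells of the PBM library. Each sequence is the 250 bases before the start of a RefSeq transcript on GRCm38.p6, the build that mm10 names, written 5′ to 3′ on the strand of the gene. Zap70 is shown at chr1:36761548-36761797 (plus strand), Lcp2 at chr11:34046678-34046927 (plus), Lat at chr7:126369569-126369818 (minus), Themis at chr10:28668110-28668359 (plus) and Fyn at chr10:39369549-39369798 (plus). Capitals mark matches, on either strand, to short strings of 6 factor families spelled out below.
Zap70: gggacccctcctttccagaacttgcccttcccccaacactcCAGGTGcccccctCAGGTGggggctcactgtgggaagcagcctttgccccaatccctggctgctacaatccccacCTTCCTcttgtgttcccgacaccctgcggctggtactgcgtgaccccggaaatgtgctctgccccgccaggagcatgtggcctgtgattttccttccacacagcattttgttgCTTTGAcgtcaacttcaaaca
Lcp2: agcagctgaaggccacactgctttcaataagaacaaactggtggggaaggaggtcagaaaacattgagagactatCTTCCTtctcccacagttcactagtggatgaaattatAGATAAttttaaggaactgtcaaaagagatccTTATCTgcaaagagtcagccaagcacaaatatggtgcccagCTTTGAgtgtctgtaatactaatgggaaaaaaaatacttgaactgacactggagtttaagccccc
Lat: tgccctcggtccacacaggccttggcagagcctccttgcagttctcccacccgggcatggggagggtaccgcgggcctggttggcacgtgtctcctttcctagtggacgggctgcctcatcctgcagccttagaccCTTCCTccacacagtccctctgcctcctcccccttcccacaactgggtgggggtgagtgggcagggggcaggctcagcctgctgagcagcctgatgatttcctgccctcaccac
Themis: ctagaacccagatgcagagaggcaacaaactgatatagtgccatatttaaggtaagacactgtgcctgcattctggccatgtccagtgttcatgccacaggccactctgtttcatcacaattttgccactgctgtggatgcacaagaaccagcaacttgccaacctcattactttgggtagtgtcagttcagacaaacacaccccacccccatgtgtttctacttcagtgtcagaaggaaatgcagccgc
Fyn: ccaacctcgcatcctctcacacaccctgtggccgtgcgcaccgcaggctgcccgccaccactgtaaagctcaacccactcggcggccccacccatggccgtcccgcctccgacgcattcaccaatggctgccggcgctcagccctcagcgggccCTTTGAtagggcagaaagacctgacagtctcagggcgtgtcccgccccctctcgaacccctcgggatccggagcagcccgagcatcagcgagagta

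Zap70 and Lcp2 each held 4 matches, with an ETS and a TCF/LEF match in both, to which Zap70 added 2 E-box and Lcp2 2 GATA matches. Lat held 1 ETS match, Fyn 1 TCF/LEF match and Themis none of the 6 strings. Of all 32851 RefSeq promoters cut to the same length, 29.5% held the ETS string, which was AGGAAG. The TCF/LEF string CTTTGA was in 13.8% of them. The GATA string AGATAA was in 9.99% and the E-box string CAGGTG in 17.2% of the promoters. The RUNX string TGTGGT was in 14.0% and the T-box string TCACACC in 3.33% of the promoters. A match is a description of letters only.

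Whole genes on the same build were Lck at chr4:129548344-129573641, Fyn at chr10:39369743-39565381, Cd247 at chr1:165779952-165871153, Zap70 at chr1:36761798-36782821, Lat at chr7:126363827-126369705, Lcp2 at chr11:34046928-34092281, Plcg1 at chr2:160731310-160775760, Prkcq at chr2:11171905-11301226 and Themis at chr10:28668360-28883820. Exons of Cd247, Lcp2, Plcg1 and Themis overlap those of an annotated gene on the other strand (Pou2f1, 4930469K13Rik, Gm27206 and 4930519F09Rik). Whether the counting used strand is not given in the sources used here, so UMIs of such pairs are uncertain. Exons of Cd247 and Lck also overlap those of a gene on the same strand (Gm16565 and Mir8119), where strand cannot separate the UMIs. Levels below are CPM of the population's UMIs in 1 library. The libraries are labelled as 3′ libraries and levels were not scaled by length, so genes are compared with themselves between populations.

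Lck, the kinase that starts the cascade, stood at 402 CPM in the control and 388 CPM in the PBM library in Pdcd1-positive CD8 T cells, at 390 and 428 CPM in Pdcd1-negative cells, at 432 and 467 CPM in CD4 T cells and at 338 and 412 CPM in Foxp3-positive T cells. The 8 T cell values thus lay within 338 to 467 CPM. In the control library the 3 highest, CD4 and both CD8 populations, had intervals of their neighbouring ratios that reached 0 on the log2 scale. Without the cells in other clusters the T cell levels were 410 and 388, 460 and 431, 494 and 467, and 376 and 414 CPM, in the same order. The control level then stood above the PBM level in all but the Foxp3-positive cells. NK cells had 191 CPM (184 to 199) in the control and 410 CPM (356 to 470) in the PBM library, and the control value was 300 CPM without the cells in other clusters. In PBM NK cells Lck was at the level of Foxp3-positive T cells, with a log2 ratio of 0.0058 (-0.23 to 0.24) between them.

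Fyn, the second Src-family kinase, had T cell levels of 164 and 171 CPM in Pdcd1-positive CD8, 157 and 130 CPM in Pdcd1-negative CD8, 170 and 158 CPM in CD4 and 131 and 168 CPM in Foxp3-positive cells, control before PBM. Of the UMIs of Fyn and Lck together, Fyn made 23.2% to 30.6% in the 8 T cell values. In Pdcd1-negative CD8 T cells the share was 28.7% (26.8 to 30.6) in the control and 23.2% (22.6 to 23.9) in the PBM library. There Lck had a log2 ratio, PBM to control, of 0.14 (0.06 to 0.21) and Fyn one of -0.27 (-0.40 to -0.15). Without the cells in other clusters the sign of Lck turned, to -0.095 (-0.17 to -0.02), and Fyn was at -0.49 (-0.62 to -0.36). The shares of Fyn were then 28.4% and 23.2%. NK cells had 99.6 CPM (94.0 to 105) in the control and 341 CPM (292 to 396) in the PBM library. The PBM NK level was the highest of all 10, above that of Pdcd1-positive CD8 T cells by 0.99 on the log2 scale (0.61 to 1.38). Fyn took 34.2% (32.6 to 35.8) of the kinase pair in control and 45.4% (40.3 to 50.5) in PBM NK cells, a share that does not depend on library scaling. Without the cells in other clusters the control share was 32.6%.

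**Figure D1:**
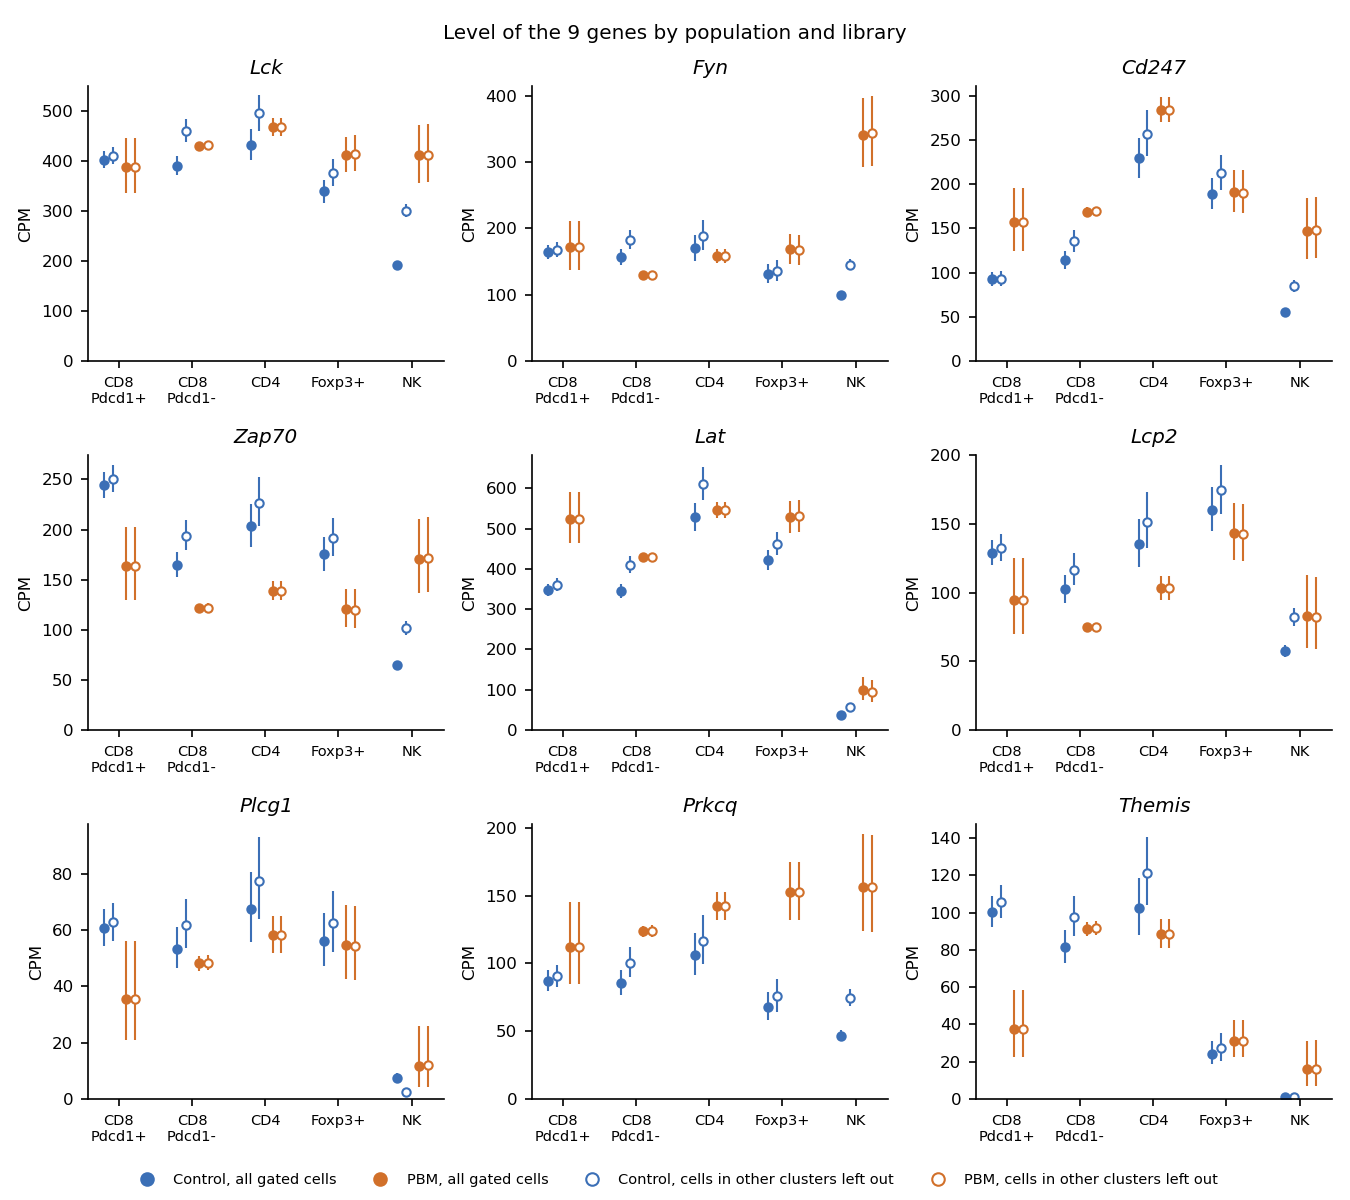
Levels of the 9 genes in CPM (vertical axis) for the 5 populations (horizontal axis) of the control and PBM libraries, with 95% counting intervals; solid points are all gated cells and open points the cells left after those in other clusters were removed. The solid T cell points of Lck lie between 338 and 467 CPM, and its open points reach 494 CPM. Lat, Plcg1 and Themis fall in NK cells, and the PBM points of Fyn in NK cells stand above all others of that gene.

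Cd247 encodes the zeta chain, which carries the immunoreceptor motifs of the receptor and of some NK receptors. Its level ran from 92.3 CPM in control and 157 CPM in PBM Pdcd1-positive CD8 T cells through 114 and 169 CPM in Pdcd1-negative CD8 and 189 and 191 CPM in Foxp3-positive cells to 229 and 284 CPM in CD4 T cells. CD4 T cells were highest in both libraries. In NK cells Cd247 was at 55.1 and 147 CPM, or 85.1 and 148 CPM without the cells in other clusters. Of the UMIs of Cd247 and Fcer1g, the related chain used by Fc and NK receptors, Cd247 made 3.65% in control and 6.87% in PBM NK cells.

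Zap70, the kinase that binds the phosphorylated chains, was highest in Pdcd1-positive CD8 T cells of the control library, at 244 CPM (232 to 257). The PBM value there was 163 CPM (130 to 202). It stood at 165 and 122 CPM in Pdcd1-negative CD8, at 203 and 139 CPM in CD4 and at 175 and 121 CPM in Foxp3-positive cells, so each PBM T cell value lay below its control value. NK cells had 64.6 and 170 CPM, and the control value was 101 CPM without the cells in other clusters. Against Syk, its relative in B and NK cells, Zap70 made 86.5% to 94.8% of the pair's UMIs in T cells, 62.0% (59.3 to 64.7) in control NK and 55.5% (47.3 to 63.5) in PBM NK cells.

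Lat, the membrane scaffold phosphorylated by Zap70, set T cells apart from NK cells. It stood at 347 and 525 CPM in Pdcd1-positive CD8, at 345 and 429 CPM in Pdcd1-negative CD8, at 529 and 547 CPM in CD4 and at 422 and 528 CPM in Foxp3-positive cells. NK cells had 37.7 CPM in the control and 99.1 CPM in the PBM library, or 57.5 and 94.0 CPM without the cells in other clusters. Lat made 84.2% to 98.2% of the UMIs of Lat and its relative Lat2 in T cells and 30.3% and 38.8% in NK cells.

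Lcp2, which encodes the adaptor SLP-76, was highest in Foxp3-positive T cells of both libraries, at 160 and 143 CPM. It stood at 129 and 94.4 CPM in Pdcd1-positive CD8, at 102 and 74.6 CPM in Pdcd1-negative CD8, at 135 and 103 CPM in CD4 T cells, and at 57.6 and 83.3 CPM in NK cells. The control NK value was 82.3 CPM without the cells in other clusters. Lcp2 is also used in myeloid cells, and myeloid-gated cells had 74.5 CPM in the control and 112 CPM (81.0 to 152) in the PBM library.

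Plcg1, the phospholipase that opens the calcium branch, ranged from 53.4 to 67.4 CPM in control and from 35.4 to 58.2 CPM in PBM T cells, and within each library the intervals of all neighbouring T cell ratios reached 0. In NK cells it had 7.56 CPM in the control and 11.9 CPM (4.36 to 25.9, from 6 UMIs) in the PBM library. Without the cells in other clusters the control NK value was 2.43 CPM. Plcg1 made 78.3% to 91.4% of the UMIs of Plcg1 and Plcg2 in T cells, and 22.5% and 20.7% in NK cells.

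Prkcq, protein kinase C theta, stood at 87.1 and 112 CPM in Pdcd1-positive CD8, at 85.6 and 124 CPM in Pdcd1-negative CD8, at 106 and 142 CPM in CD4 and at 67.9 and 152 CPM in Foxp3-positive T cells. The Foxp3-positive cells were thus the lowest T cell population of the control library and the highest of the PBM library, though there the ratio to CD4 T cells was 0.10 on the log2 scale (-0.13 to 0.33). In NK cells Prkcq had 46.7 and 157 CPM, and 74.4 CPM in the control without the cells in other clusters.

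Themis, a T-lineage protein best known from thymocyte selection that binds the phosphatase SHP-1, varied most between populations. It stood at 100.4 and 37.4 CPM in Pdcd1-positive CD8, at 81.7 and 91.3 CPM in Pdcd1-negative CD8, at 102 and 88.5 CPM in CD4 and at 24.4 and 31.1 CPM in Foxp3-positive T cells. NK cells had 0.997 CPM (0.515 to 1.74, from 12 UMIs) in the control and 15.9 CPM (6.85 to 31.2, from 8 UMIs) in the PBM library. Free RNA was estimated from genes of other lineages in each population, and it could supply 1.91 CPM of Themis in control and 10.9 CPM in PBM NK cells, 192% and 68.5% of the levels. The free share was a median over marker genes that differed widely. In NK cells it was 13.2% (3.06% to 133% over 17 genes) in the control and 19.4% (0% to 185% over 14 genes) in the PBM library. Percentages of levels drawn from it, here and below, are therefore rough. Themis in NK cells was thus not told from background. The same estimate reached 59.6% of Lat and 59.0% of Plcg1 in PBM NK cells but 5.94% of Fyn, 10.6% of Prkcq and 9.67% of Zap70. In T cells it was at most 32.6% of any member, reached by Themis in Foxp3-positive T cells of the PBM library.

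Shares of cells with a UMI were compared after every cell had been thinned to 1000 UMIs, since median depth differed (7379 and 8333 UMIs in Pdcd1-positive CD8, 4592 and 6473.5 in Pdcd1-negative CD8, 3957 and 5444 in CD4, 4139 and 4575 in Foxp3-positive and 5553 and 3290 in NK cells). No cell was too shallow for this. Zap70 was seen in 24.8% of control and 12.2% of PBM Pdcd1-positive CD8 T cells, in 18.5% and 10.9% of Pdcd1-negative, 20.3% and 13.3% of CD4 and 19.6% and 11.1% of Foxp3-positive T cells. Without thinning these shares were 73.9% and 63.3%, 47.7% and 50.7%, 51.1% and 46.7%, and 48.4% and 37.9%. B-gated cells, which should lack Zap70, gave 1.38% and 1.80% after thinning, with median depths of 2774 and 4569 UMIs. Prkcq was seen in 7.40% of control and 17.7% of PBM Foxp3-positive T cells (26.3% and 46.9% without thinning), against 0.459% and 2.09% of B-gated cells. Fyn was seen in 14.8% of control and 24.0% of PBM NK cells (51.4% and 64.0% without thinning), against 5.96% and 3.93% of B-gated cells. Lat was seen in 5.03% and 8.80% of NK cells (24.2% and 29.6% without thinning), and the B-gated share of 6.28% in the PBM library was close to the NK share there. Plcg1 was seen in 5 of 1272 control and 0 of 125 PBM NK cells after thinning, the latter an interval of 0 to 2.91%.

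**Figure D2:**
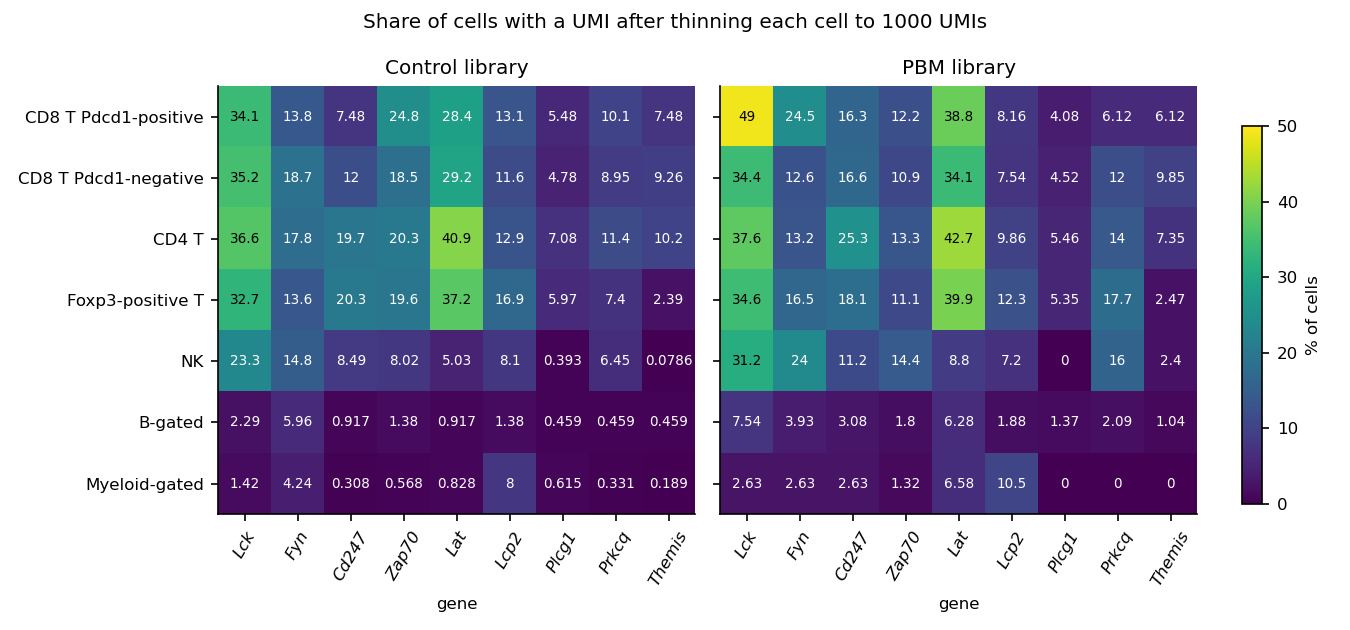
Share of cells in % (colour and printed value) with at least 1 UMI of each gene (horizontal axis) after thinning each cell to 1000 UMIs, by population (vertical axis), for the control (left) and PBM (right) library. In the 4 T cell populations Zap70 lies between 18.5% and 24.8% (control) and between 10.9% and 13.3% (PBM), and the values of B-gated and myeloid-gated cells are shown beside them.

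PBM was then compared with control within each population. A gene counted as higher or lower where its levels differed at least 1.5-fold and the interval of the ratio did not reach 1, and only genes with at least 20 UMIs in the 2 sums were read. The median of the 9 log2 ratios was -0.05 in Pdcd1-positive CD8, 0.14 in Pdcd1-negative CD8, -0.11 in CD4 and 0.28 in Foxp3-positive T cells, beside medians of -0.17, -0.19, -0.15 and -0.16 over all genes. In NK cells it was 1.40 beside -0.08. The members moved in different directions in T cells, so each is given on its own.

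Zap70 had a log2 ratio, PBM to control, of -0.58 (-0.92 to -0.26) in Pdcd1-positive CD8, -0.44 (-0.56 to -0.32) in Pdcd1-negative CD8, -0.55 (-0.73 to -0.36) in CD4 and -0.54 (-0.81 to -0.27) in Foxp3-positive T cells. All 4 intervals lay below 0 and none reached 1.5-fold. Without the cells in other clusters the ratios were -0.62, -0.67, -0.71 and -0.68, and Zap70 then counted as lower in all 4, as did 12.4%, 20.9%, 20.9% and 20.0% of all genes. With totals that leave out ribosomal and mitochondrial UMIs they were -0.40, -0.17, -0.27 and -0.30, and after thinning before gating they were -1.22, -0.78 and -1.16 in Pdcd1-negative CD8, CD4 and Foxp3-positive T cells. Thinning before gating also changed which cells were in a gate. The control library then gave 127 Pdcd1-positive and 581 Pdcd1-negative CD8 T cells, in place of 602 and 648. Those ratios are thus not of the same cells at a lower depth. A share within the cascade needs no library scaling: Zap70 made 37.8%, 29.7%, 32.0% and 34.1% of the UMIs of Zap70 and Lck in the 4 control populations and 29.6%, 22.1%, 22.9% and 22.6% in the PBM populations. In NK cells the direction differed, with 25.2% (23.7 to 26.8) in the control and 29.4% (24.2 to 34.9) in the PBM library, where the intervals overlap.

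**Figure D3:**
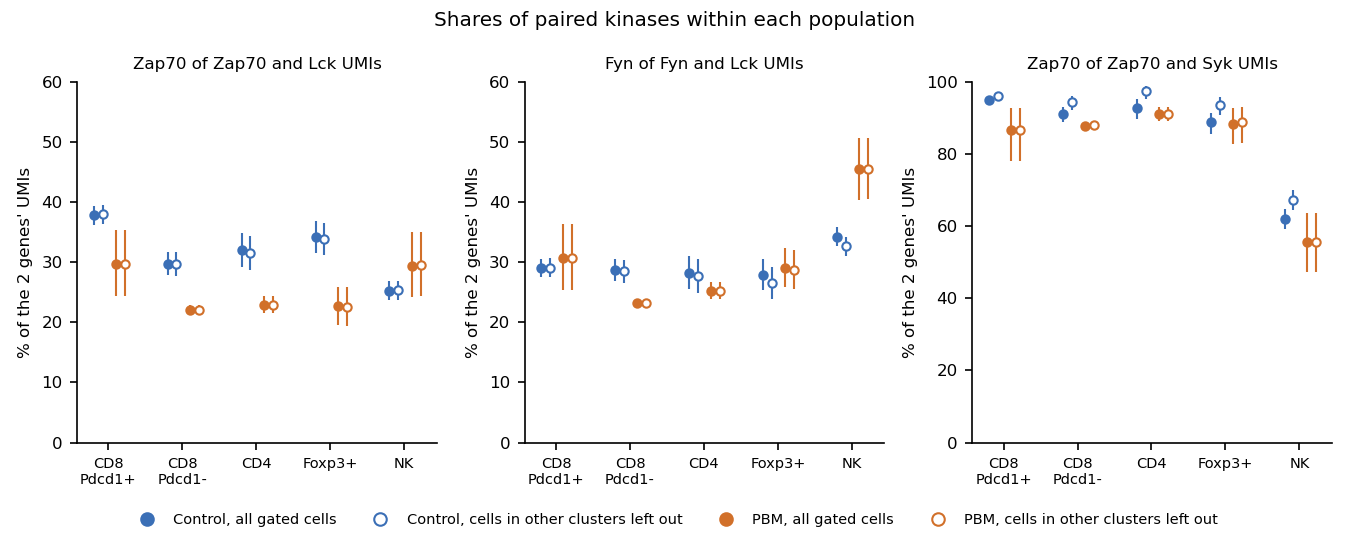
Share in % (vertical axis) of Zap70 in Zap70 and Lck UMIs, of Fyn in Fyn and Lck UMIs and of Zap70 in Zap70 and Syk UMIs for the 5 populations (horizontal axis) of both libraries, with exact 95% intervals; open points leave out cells in other clusters. Zap70 against Lck runs from 29.7% to 37.8% in control and from 22.1% to 29.6% in PBM T cells, and Fyn against Lck is highest in PBM NK cells at 45.4%.

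Lcp2 had log2 ratios of -0.45 (-0.90 to -0.03), -0.46 (-0.61 to -0.30), -0.39 (-0.61 to -0.17) and -0.16 (-0.42 to 0.09) in the same order of populations. The interval of the Foxp3-positive cells reached 0, and there the sign turned to 0.08 with ribosomal and mitochondrial UMIs left out. Without the cells in other clusters the ratios were -0.49, -0.64, -0.55 and -0.29, and Lcp2 then counted as lower in Pdcd1-negative CD8 T cells. Of the UMIs of Lcp2 and Lat, Lcp2 made 27.1%, 22.9%, 20.4% and 27.5% in control and 15.2%, 14.8%, 15.9% and 21.4% in PBM T cells.

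Cells with naive-state genes differed between the libraries in the same populations. In Pdcd1-negative CD8 T cells 21.1% of control and 87.9% of PBM cells had at least 2 UMIs of Ccr7, Lef1 and Dapl1 together, and the shares were 10.3% and 77.6% in Pdcd1-positive CD8, 19.1% and 85.7% in CD4 and 10.5% and 49.4% in Foxp3-positive T cells. Cells with these UMIs and cells with none were compared in Pdcd1-negative CD8 T cells. The cut was made on unthinned cells and depends on depth. Median depths were 6099 and 6752 UMIs in cells with these UMIs and 3868 and 4005.5 in cells with none, control before PBM. After thinning before gating, 18 of 581 control and 621 of 1830 PBM cells passed the cut. Depth and state are thus mixed in these shares and comparisons. Within the control library, 137 cells with these UMIs had 142 CPM of Zap70 against 182 CPM in 403 cells with none, a log2 ratio of -0.35 (-0.63 to -0.08). For Lcp2 the levels were 89.7 and 109 CPM, and the interval of the ratio, -0.28 (-0.64 to 0.06), reached 0. Within the PBM library both intervals reached 0, at -0.04 (-0.35 to 0.27) for Zap70 and -0.07 (-0.45 to 0.33) for Lcp2. Between the libraries, cells with these UMIs had 120.1 CPM of Zap70 in the PBM and 142 CPM in the control library, and the interval of that ratio, -0.24 (-0.48 to 0.0025), reached 0. Among cells with none, 160 of them in the PBM library, Zap70 stood at 124 and 182 CPM, a ratio of -0.55 (-0.90 to -0.22). Lcp2 was at -0.28 (-0.58 to 0.03) in cells with these UMIs and at -0.49 (-0.94 to -0.07) in cells with none. Lat, Cd247 and Fyn differed between the libraries also among the cells with these UMIs, with 0.30 (0.15 to 0.45), 0.36 (0.12 to 0.61) and -0.40 (-0.62 to -0.18).

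Prkcq was higher in PBM than in control Foxp3-positive T cells by 1.17 on the log2 scale (0.86 to 1.47), a 2.25-fold difference, and by 1.01 without the cells in other clusters. After every cell had been thinned to 1000 UMIs before gating, which left 215 control and 102 PBM cells, the ratio was 0.49 (-0.70 to 1.62) and did not count. It was the 1 member counted in that population, where 29.2% of all genes counted in either direction and 8.55% as higher. The ratios in Pdcd1-negative CD8 and CD4 T cells were 0.53 (0.37 to 0.69) and 0.42 (0.19 to 0.66), and in Pdcd1-positive CD8 0.36 (-0.06 to 0.76). With totals that leave out ribosomal and mitochondrial UMIs the Pdcd1-negative CD8 and CD4 ratios were 0.79 and 0.70, past 1.5-fold in both. As a share of Prkcq and Lck UMIs, Prkcq stood at 16.7% in control and 27.0% in PBM Foxp3-positive cells, and at 17.8% and 22.4%, 18.0% and 22.4%, and 19.7% and 23.3% in Pdcd1-positive CD8, Pdcd1-negative CD8 and CD4 T cells.

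In Pdcd1-positive CD8 T cells 4 of the 9 members counted, where 20.0% of all genes did (7.25% higher and 12.7% lower). Themis was lower by -1.43 (-2.17 to -0.77) on 19 PBM UMIs and Plcg1 by -0.78 (-1.55 to -0.10) on 18. Cd247 was higher by 0.77 (0.41 to 1.11) and Lat by 0.60 (0.41 to 0.78), and Lat no longer counted at 0.54 without the cells in other clusters, at 0.53 and 0.57 with cells from clusters, at 0.55 after free RNA subtraction and at 0.49 with only the barcodes whose name ends in N1 (N1 barcodes). With TMM factors, a library scaling of edgeR, Plcg1 did not count (-0.68, -1.45 to 0.0041), nor with ribosomal and mitochondrial UMIs left out (-0.59, -1.36 to 0.09) or without doublet calls (-0.65, -1.44 to 0.05). Themis stood at -1.50, Plcg1 at -0.82 and Cd247 at 0.76 without the cells in other clusters. Only 49 PBM cells carry these values. Lck (-0.05) and Fyn (0.06) had intervals that reached 0.

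No member counted in Pdcd1-negative CD8 or CD4 T cells, where 32.4% and 31.9% of all genes did. Cd247 was at 0.57 (0.43 to 0.71) and 0.31 (0.15 to 0.47), and stood at 0.32 and 0.15 without the cells in other clusters. Lat was at 0.31 (0.23 to 0.39) and 0.05 (-0.06 to 0.16), and at 0.07 and -0.16 without those cells. With TMM factors all ratios move up with those of all genes (by 0.21 and 0.17), and Cd247 was then at 0.78 and 0.48. The signs of Plcg1 in Pdcd1-negative CD8 and of Fyn, Plcg1 and Themis in CD4 T cells turned under another scaling.

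**Figure D4:**
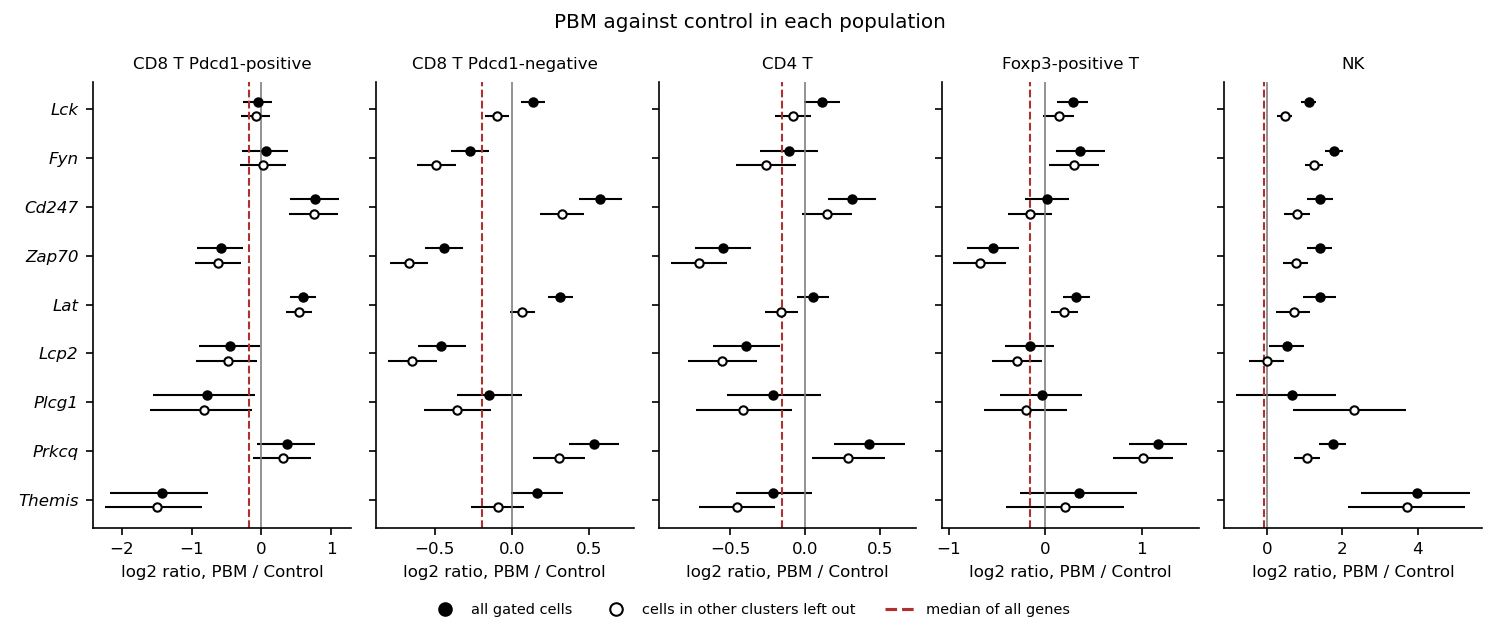
Log2 ratio of PBM to control (horizontal axis) for the 9 genes (vertical axis) in the 5 populations, with exact 95% intervals; solid points are all gated cells, open points leave out cells in other clusters, and the dashed line is the median of all genes. Among solid points Zap70 lies at -0.44 to -0.58 in the 4 T cell populations and Prkcq at 1.17 in Foxp3-positive T cells. In NK cells the open points lie below most solid ones.

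In NK cells 7 of the 9 members counted as higher in the PBM library, where 25.6% of all genes counted and 13.0% as higher. Log2 ratios were 1.10 (0.89 to 1.31) for Lck, 1.78 (1.54 to 2.01) for Fyn, 1.41 (1.05 to 1.76) for Cd247, 1.40 (1.06 to 1.72) for Zap70, 1.39 (0.94 to 1.82) for Lat, 1.75 (1.39 to 2.09) for Prkcq and 3.99 (2.50 to 5.40) for Themis. Lcp2 (0.53, 0.05 to 0.98) and Plcg1 (0.65, -0.83 to 1.83) did not count. The NK markers moved the same way: Ncr1 stood at 256 and 616 CPM, Klrb1c at 321 and 781, Klra8 at 196 and 696 and Eomes at 116 and 307 CPM, control before PBM. They were also higher in the PBM library without the cells in other clusters. Ncr1 then stood at 405 and 622 CPM, Klrb1c at 503 and 782, Klra8 at 310 and 702 and Eomes at 182 and 310 CPM. Ncr1, Klrb1c and Klra8 are genes of the NK gate. Without the cells in other clusters the median of the 9 fell to 0.80. Lck was then at 0.46 and no longer counted, while Fyn (1.25), Cd247 (0.80), Zap70 (0.76), Lat (0.71), Prkcq (1.07) and Themis (3.72) still did, Plcg1 (2.30) joined them, and Lcp2 stood at -0.0048. In that reading 9.50% of all genes counted as higher. After thinning before gating, Lck (0.52, 0.11 to 0.91), Cd247 (0.17, -0.66 to 0.92) and Themis (2.89, -0.24 to 6.47) did not count. With NK cells taken from clusters Lck was at 0.36 and did not count. For Lat, Plcg1 and Themis the free RNA estimate above limits what the PBM level shows. The T cell genes Cd3d (10.8 and 55.5 CPM), Trac (9.22 and 35.7 CPM) and Cd8b1 (7.31 and 51.5 CPM) were also higher in PBM NK cells.

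Within each library the populations were compared with one another. In the control library no member counted between Pdcd1-positive and Pdcd1-negative CD8 T cells, where 14.0% of all genes did. Zap70 came nearest at 0.57 (0.43 to 0.70), and 0.37 without the cells in other clusters, and Cd247 stood at -0.30 (-0.49 to -0.12) and -0.54. After thinning before gating, Fyn (-0.95, -1.90 to -0.12) and Cd247 (-1.13, -2.49 to -0.0098) counted as lower. Zap70 counted as higher without doublet calls (0.587, 0.45 to 0.72). The split by 1 UMI of Pdcd1 goes with depth, with medians of 7379 and 4592 UMIs. In the PBM library Themis counted as lower in the Pdcd1-positive cells, at -1.29 (-2.02 to -0.64), among 1.94% of all genes that did. Zap70 was at 0.43 (0.09 to 0.74) and Fyn at 0.40 (0.08 to 0.71) there. With N1 barcodes, which left 26 Pdcd1-positive cells, Fyn (0.66), Zap70 (0.66) and Lcp2 (0.68) counted as higher and Prkcq (-0.71) as lower.

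Themis was lower in Foxp3-positive than in CD4 T cells in both libraries, by -2.07 (-2.52 to -1.64) in the control and -1.51 (-2.01 to -1.05) in the PBM library. Genes counted as lower made 6.25% and 3.24% of those read. After thinning to 1000 UMIs before gating, the PBM ratio was -0.51 (-2.26 to 0.90) and no longer counted. The levels were 24.4 against 102 CPM and 31.1 against 88.5 CPM, so the Foxp3-positive and CD4 intervals did not overlap in either library. Prkcq was lower in the Foxp3-positive cells of the control library (-0.64, -0.95 to -0.33), which also counted, but not after thinning before gating (-0.26, -1.33 to 0.84) or with N1 barcodes alone (-0.58, -1.10 to -0.06). It stood at 0.10 in the PBM library. Lcp2 was at 0.24 (0.01 to 0.48) and 0.47 (0.23 to 0.71), and Cd247 at -0.28 (-0.48 to -0.08) and -0.57 (-0.77 to -0.38), and neither counted. Cd247 in the PBM library did count, at -0.68 to -0.71, with TMM factors, with ribosomal and mitochondrial UMIs left out, after free RNA subtraction and with N1 barcodes.

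NK cells were compared with all CD8 T cells. In the control library all 9 members counted as lower in NK cells, where 8.85% of all genes did. Without the cells in other clusters 5 counted, with 10.1% of all genes: Zap70 (-1.18), Lat (-2.72), Lcp2 (-0.62), Plcg1 (-4.68) and Themis (-6.40). Lck (-0.52), Fyn (-0.26), Cd247 (-0.36) and Prkcq (-0.34) did not, and the same 4 did not count with cells taken from clusters or after thinning before gating. In the PBM library 3 members counted as lower, with 4.37% of all genes: Lat (-2.12, -2.55 to -1.72), Plcg1 (-2.01, -3.46 to -0.89) and Themis (-2.51, -3.72 to -1.53). Fyn counted as higher there at 1.39 (1.16 to 1.61), with 17.6% of all genes. Lat, Plcg1 and Themis thus counted as lower in NK cells of both libraries with and without the cells in other clusters.

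**Figure D5:**
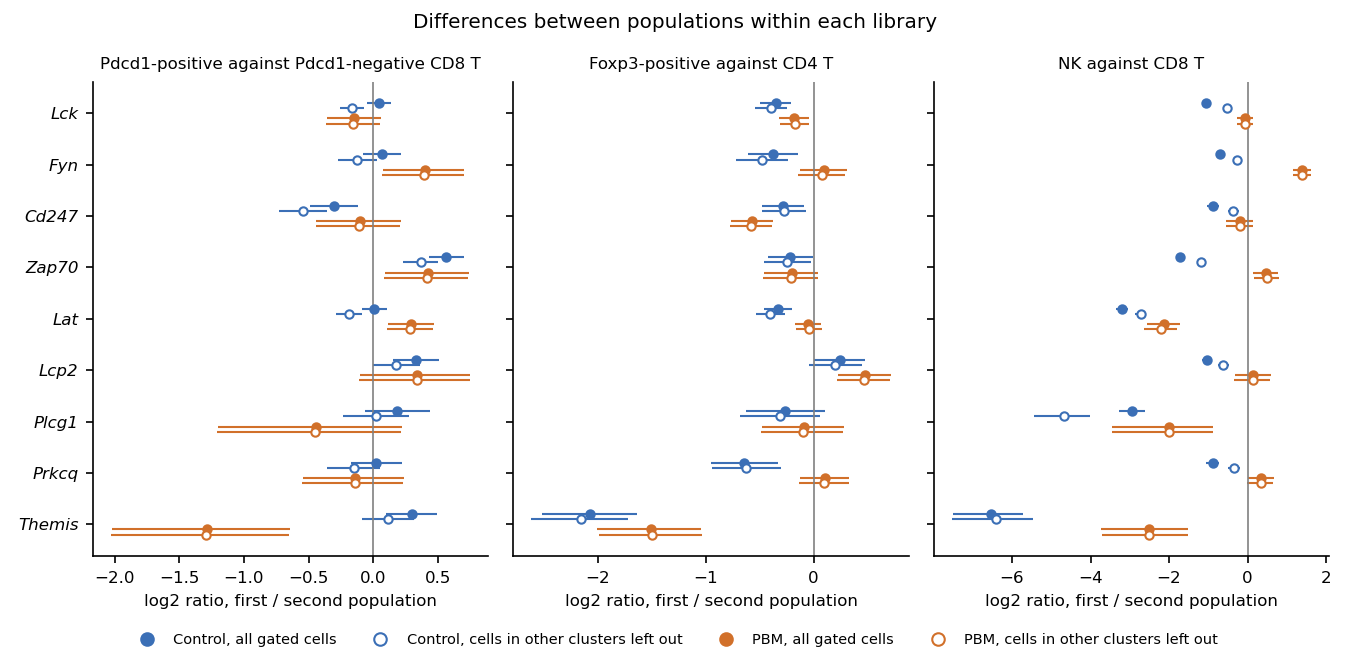
Log2 ratio between populations (horizontal axis) for the 9 genes (vertical axis) within the control and PBM library, with exact 95% intervals; open points leave out cells in other clusters. Themis lies at -2.07 and -1.51 in Foxp3-positive against CD4 T cells, and in NK against CD8 T cells Lat, Plcg1 and Themis lie left of 0 in both libraries while Fyn lies at 1.39 in the PBM library.

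Other genes of the cascade were read in 5 lists, which were chosen with earlier results of these data known. Of the measured genes 7 of 93 counted as higher and 24 as lower in PBM Pdcd1-positive CD8 T cells, 10 and 24 of 93 in Pdcd1-negative CD8, 10 and 26 of 91 in CD4 and 12 and 21 of 90 in Foxp3-positive T cells. Of all genes 7.25%, 7.99%, 9.09% and 8.55% counted as higher and 12.7%, 24.4%, 22.8% and 20.6% as lower. The medians of the 5 lists together were -0.15, -0.10, -0.15 and -0.05 on the log2 scale, beside the medians over all genes given above. In NK cells 54 of 93 counted as higher and 2 as lower, beside 13.0% and 12.6% of all genes, with a median of 0.83 and with the same clusters of other cell types in the gate. Without those cells 24 of 93 counted as higher and 4 as lower, beside 9.50% and 6.63% of all genes, with a median of 0.35. Of the negative regulators, which include phosphatases, ubiquitin ligases and SOCS proteins, 10 of 23, 13 of 23, 11 of 22 and 9 of 21 counted as lower in the 4 T cell populations, where 12.7%, 24.4%, 22.8% and 20.6% of all genes did. With ribosomal and mitochondrial UMIs left out of the totals these counts were 8, 10, 10 and 6. All genes moved under that scaling too, so the shares above do not serve for these counts. Of all genes counted, 56.2%, 46.0%, 51.7% and 51.8% were then higher, in place of 36.3%, 24.6%, 28.5% and 29.3%.

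Dgka, a diacylglycerol kinase that damps the Ras branch, was the 1 negative regulator that counted as higher in each T cell population. Its levels were 36.4 and 132 CPM in Pdcd1-positive CD8, 59.8 and 170 in Pdcd1-negative CD8, 95.6 and 243 in CD4 and 72.3 and 190 in Foxp3-positive T cells, control before PBM. The cytokine signalling inhibitor Socs1 stood at 74.3 and 21.6 CPM, 85.6 and 32.4, 136 and 46.1, and 195 and 97.1 CPM in the same order and counted as lower in all 4. It was chosen after its values had been seen. Trat1, an adaptor that binds the receptor's zeta chain, stood at 14.5 and 37.4, 20.9 and 41.4, 58.7 and 124, and 68.7 and 132 CPM and counted as higher in all 4. The adaptor Sla, which lowers receptor signalling, was at 161 and 41.3, 93.7 and 57.4, 158 and 56.2, and 174 and 111 CPM. It counted as lower in all 4 with CPM of all UMIs. TMM factors raise every ratio by 0.21 in Pdcd1-negative CD8 and 0.16 in Foxp3-positive T cells. Leaving out ribosomal and mitochondrial UMIs raises them by 0.26 and 0.24. Under either scaling Sla is less than 1.5-fold lower in those populations and would not count there. Tyrobp and Fcer1g, signal chains of innate receptors, led the genes counted as lower, and free RNA could supply 55.6% to 91.0% of the Fcer1g level in control T cells. In Foxp3-positive cells the adaptors Lax1 (11.4 and 38.7 CPM) and Tespa1 (24.4 and 70.6 CPM) led the genes counted as higher. Cells with naive-state genes differed between the libraries as given above, and their part in these counts was not tested.

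For 8 of the members the genes with the most similar profile over the 10 values (5 populations in 2 libraries, which share depth and free RNA within a library) were listed among 7208 genes, by Pearson's r of log2(CPM + 1). The T cell genes Trac and Bcl11b stood near Lat (0.98 and 0.98), and Cd6 and Trac near Plcg1 (0.98 and 0.98), both members that fall in NK cells. Trac is a gene of the gates, so its low level in NK cells is partly set by the gating. Cd247 was nearest to Ddx6 (0.97) and to the Ras exchange factor Rasgrp1 (0.96), Fyn to Ptprc, which encodes the phosphatase CD45 (0.93), Lck to Rassf5 (0.95), Zap70 to Arpc5 (0.93), Lcp2 to Sdcbp2 (0.97) and Prkcq to Tmem71 (0.96).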

How the data were processed

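The deposited matrices are raw UMI counts, 1 value for each gene in each barcode, for 1 control and 1 PBM library, with no normalization. Processing with Cell Ranger 7.2.0 against mm10 is named in the submitters' processing notes, while PISA 0.12 is named per the file headers; which of them made the count matrices is not settled. The members and gene lists were chosen with earlier results of these data known.

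Cells needed at least 500 UMIs, 200 genes and at most 10% mitochondrial UMIs, which left 11227 control and 13961 PBM cells. Doublets were called with Scrublet in scanpy 1.11.5 (1.14% and 6.44% of cells) and were kept, with their removal as an alternative. A CD8 T cell had Cd8a or Cd8b1 and neither Cd4 nor Foxp3, split by 1 UMI of Pdcd1. CD4 T cells had Cd4 and neither Cd8a, Cd8b1 nor Foxp3, Foxp3-positive T cells had Foxp3 and no Cd8a or Cd8b1, and NK cells had at most 1 UMI of the T cell genes. UMIs were summed per population and library and divided by that sum's total to give CPM, with exact Poisson intervals, exact conditional binomial intervals for ratios and exact Clopper-Pearson intervals for shares. Clusters (Leiden, igraph 0.11.9, seed 0) were named from marker lists. The genes named are the 9 members, the 3 pathway genes with the largest ratio in each direction among those counted, of which some are printed, and the 3 most similar profiles, of which up to 2 are printed. Some genes are not reported here, and the list of naive-state genes was shortened to 3 for this reason after its values had been seen.

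Alternatives were TMM factors (edgeR 4.0.16), totals without ribosomal and mitochondrial UMIs, stricter gates, populations from clusters at 2 resolutions, thinning to 1000 UMIs before gating, subtraction of free RNA, removal of doublet calls, and barcodes whose name ends in N1. The interval script was tested on simulated data. The p-values of a replicated design were not computed, since each group holds 1 library.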

Additional observations from a re-analysis of the deposited data

Results flagged for a closer look

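Several PBM to control log2 ratios had opposite signs in 2 populations, each with an interval clear of 0; the differences between populations were not tested. Fyn stood at 0.36 in Foxp3-positive T cells and 1.78 in NK cells against -0.27 in Pdcd1-negative CD8 T cells. Zap70 stood at 1.40 in NK cells against -0.58, -0.44, -0.55 and -0.54 in Pdcd1-positive CD8, Pdcd1-negative CD8, CD4 and Foxp3-positive T cells. Without gated cells in clusters of another cell type the NK value of Zap70 was 0.76. Lcp2 stood at 0.53 in NK cells against -0.45, -0.46 and -0.39 in Pdcd1-positive CD8, Pdcd1-negative CD8 and CD4 T cells, and without those cells its NK value was -0.0048, so that its sign no longer differed. Themis stood at 3.99 in NK cells, on 8 PBM UMIs, against -1.43 in Pdcd1-positive CD8 T cells.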

How the results depend on the processing

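The median log2 ratio of the 9 members is given here under each alternative that moved it beyond the counting interval of its middle gene. That interval belongs to the middle gene and does not measure the spread of the median. The causes were not tested. For PBM against control in Pdcd1-negative CD8 T cells (0.14) it was 0.35 with TMM factors, 0.40 with totals without ribosomal and mitochondrial UMIs, 0.00843 with stricter gates, -0.21 and -0.25 with lineages from clusters, -0.10 after thinning to 1000 UMIs before gating, 0.018 after free RNA subtraction, 0.035 with N1 barcodes and -0.095 without gated cells in clusters of another cell type. In CD4 T cells (-0.11) it was 0.17 with ribosomal and mitochondrial UMIs left out. In Foxp3-positive T cells (0.28) it was 0.52 with those UMIs left out, -0.48 after thinning, -0.047 after free RNA subtraction and 0.089 with N1 barcodes. In NK cells (1.40) it was 0.75 and 0.75 with clusters, 0.78 after thinning and 0.80 without cells in other clusters. Pdcd1-positive against Pdcd1-negative CD8 T cells of the control library gave -0.10 and -0.11 with clusters, -0.16 after thinning and -0.12 without cells in other clusters, beside 0.07. Foxp3-positive against CD4 T cells gave -0.091 after thinning and -0.50 with N1 barcodes in the control library, beside -0.33, and -0.51 after thinning in the PBM library, beside -0.09. NK against CD8 T cells of the control library (-1.05) gave -1.14 with TMM factors, -0.67 and -0.68 with clusters, -0.62 after thinning, -1.23 after free RNA subtraction and -0.62 without cells in other clusters. In the PBM library (-0.06) it gave -0.40 with TMM factors, -0.38 with ribosomal and mitochondrial UMIs left out and 0.14 after thinning. Fyn and Cd247 in the control NK comparison turned to 0.33 and 0.11 after thinning.

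Thinning before gating moved most, and it also changed which cells were in a gate. Of 79 member ratios that it allowed, 24 stayed within their counting interval, 53 left it and 2 reversed. After free RNA subtraction 82 of 97 stayed within it. Of 99 member ratios, 99 did so without doublet calls, 92 with stricter gates, 81 with TMM factors, 81 with N1 barcodes, 76 with ribosomal and mitochondrial UMIs left out, 67 without cells in other clusters and 61 with each cluster resolution. Among all genes counted, the share that was higher changed with TMM factors and with ribosomal and mitochondrial UMIs left out. It went from 36.3% to 47.3% and 56.2% for PBM against control in Pdcd1-positive CD8, from 24.6% to 41.5% and 46.0% in Pdcd1-negative CD8, from 28.5% to 42.8% and 51.7% in CD4 and from 29.3% to 43.3% and 51.8% in Foxp3-positive T cells. Within libraries it went from 61.9% to 49.2% and 50.7% for control and from 77.1% to 59.0% and 61.3% for PBM Foxp3-positive against CD4 T cells, from 81.6% to 55.9% and 66.3% for PBM Pdcd1-positive against Pdcd1-negative CD8, and from 80.1% to 53.4% and 55.2% for PBM NK against CD8 T cells. Without a minimum of UMIs 12.7% of genes counted in Pdcd1-positive CD8 T cells in place of 20.0%.

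Thinning before gating left 3 PBM Pdcd1-positive CD8 T cells, so both comparisons that use them were not run with it. Plcg1 after thinning and Themis after free RNA subtraction gave no value in NK cells. No paired analysis was possible because each group holds 1 library. Depth limits PBM Pdcd1-positive CD8 T and NK cells most, with 49 and 125 cells and 508249 and 504495 UMIs.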
